A study of Mus musculus with 24 samples.

Results

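Cd36, Lpl, Gpihbp1, Fabp4, Fabp5, Aqp7, Pparg, Meox2, Tcf15 and Angptl4, taken by symbol, form a set of 10 genes that handle fatty acids and glycerol at the capillary wall. All 10 were found among the 52997 gene symbols of the count table, and all 10 were among the 16263 genes with enough counts to be tested. RNA was sequenced from cells sorted out of the hindlimb skeletal muscle of C57BL/6 mice aged 8 weeks, either uninjured or 1 day after cardiotoxin, a venom toxin that destroys muscle fibers. The sorted cells were CD31+ endothelial cells, CD45+ hematopoietic cells, mesenchymal stromal cells (MSC; negative for CD45 and CD31, positive for Sca1 and PDGFRa) and muscle stem cells (MuSC; negative for CD45, CD31 and Sca1, positive for Vcam1). Each of the 8 groups had 3 libraries of about 1000 cells, called biological replicates in the labels; which mouse each came from is not stated, so the tests weigh effects against the scatter of libraries. Library totals ran from 2301202 to 7649841 counts.

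In muscle, triglyceride carried by lipoproteins is split at the capillary surface by lipoprotein lipase (Lpl), an enzyme made largely by cells outside the vessel and carried across the endothelial cell to its working place by Gpihbp1. Angptl4 is a secreted inhibitor of that lipase. The freed fatty acids are taken up with the help of Cd36 and bound inside the cell by Fabp4 and Fabp5, while glycerol can pass through the channel Aqp7. Pparg is a nuclear receptor that, paired with a retinoid X receptor, acts on many lipid genes, and Meox2 and Tcf15 are transcription factors known to act as a pair on fatty acid transport in heart endothelium. Several of these genes, Fabp4, Cd36, Aqp7 and Pparg among them, are also known from fat cells.

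The CD31+ libraries carried the transcripts of endothelium. Pecam1, which encodes CD31, stood at 2052 ± 152 CPM (SD, n = 3) uninjured and 1946 ± 118 CPM injured. The fat cell gene Adipoq was at most 0.565 CPM in any CD31+ library, and a list of 8 fat cell genes summed to 3.40 to 16.4 CPM uninjured and 0.923 to 5.71 CPM injured. CPM, the counts of a gene per megacount of its library, are scaled here for library composition (TMM).

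The genes lie on 9 chromosomes of GRCm38 (mm10) in the GENCODE vM21 annotation, and none has an exon that overlaps an exon of another gene. Fabp5 (chr3:10012548-10016607, plus strand) and Fabp4 (chr3:10204088-10208576, minus strand) share a stretch of chromosome 3, with Pmp2 and Fabp9 between them. Those 2 neighbours were at most 0.283 and 0.638 CPM in any library, whereas Fabp4 reached 4919 CPM. Cd36 lies at chr5:17781690-17888801 (minus strand) and Aqp7 at chr4:41033074-41048139 (minus strand). Of all 25-base words in its exons, Fabp5 shares 10.1% with other genes, mainly Fabp5-like pseudogenes, Aqp7 shares 7.44% and Lpl 6.07%, so that reads of these 3 are the least certain to have been assigned to the right gene. The other 7 share less than 1%.

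Transcripts of Cd36 and Aqp7 were lower in injured than in uninjured CD31+ cells, and both are known Pparg target genes in fat cells. Tcf15 was lower too, Angptl4 was higher, and the other 6 members, Pparg and Fabp4 among them, did not pass the test. Any part of Pparg in these changes was not tested. For Cd36 and Aqp7 the 250 bases before their start sites (RefSeq, GRCm38.p6) are shown. Capitals mark the nuclear receptor half-site AGGTCA, which reads TGACCT on the other strand. Each window is written 5′ to 3′ on the strand of the gene.
Aqp7, chr4:41048137-41048386, minus strand: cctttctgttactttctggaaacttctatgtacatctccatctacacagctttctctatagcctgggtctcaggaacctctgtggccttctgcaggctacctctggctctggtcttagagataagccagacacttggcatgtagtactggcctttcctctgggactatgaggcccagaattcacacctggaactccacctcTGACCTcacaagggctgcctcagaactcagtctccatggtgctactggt
Cd36, chr5:17835897-17836146, minus strand: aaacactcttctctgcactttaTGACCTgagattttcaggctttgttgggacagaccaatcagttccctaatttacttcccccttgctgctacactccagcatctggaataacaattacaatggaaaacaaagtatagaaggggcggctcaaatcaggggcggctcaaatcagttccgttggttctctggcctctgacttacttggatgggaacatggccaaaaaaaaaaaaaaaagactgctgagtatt
The half-site begins 49 bases before this Aqp7 start and 228 bases before this Cd36 start. A window for another Aqp7 start, not printed, overlaps the first and holds 2 half-sites, the one shown above among them. Of 3 Pparg windows 2 hold a half-site, 28 and 9 bases before their starts, and the window of Meox2 holds none. It occurs on either strand in 14% of 32851 promoter windows of the same length, so finding it is common. The full direct repeat AGGTCANAGGTCA occurs in 0.0335% of those windows and in none of the 7 windows available for Cd36, Aqp7, Pparg and Meox2. A match describes the letters only, and a missing match says nothing about the receptor.

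The first comparison asked where these genes are expressed in uninjured muscle. Of the 10 members, 7 were higher in CD31+ cells than in each of the other 3 populations (edgeR quasi-likelihood test, adjusted p below 0.05 against each), namely Cd36, Gpihbp1, Fabp4, Fabp5, Aqp7, Pparg and Tcf15, where 9.92% of all tested genes did so. Lpl, Meox2 and Angptl4 did not. Each pair of populations was tested too: an uninjured difference in either direction passed for 50.6% of all tested genes for CD31+ against CD45+, 47% for CD31+ against MSC, 49.1% for CD31+ against MuSC, 56.8% for CD45+ against MSC, 56.2% for CD45+ against MuSC and 40.7% for MSC against MuSC. Together the 10 genes made up 1.57% ± 0.150 (SD, n = 3) of all counts in uninjured CD31+ cells, and Cd36 and Fabp4 alone made up 1.04% ± 0.0762.

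**Figure D1:**
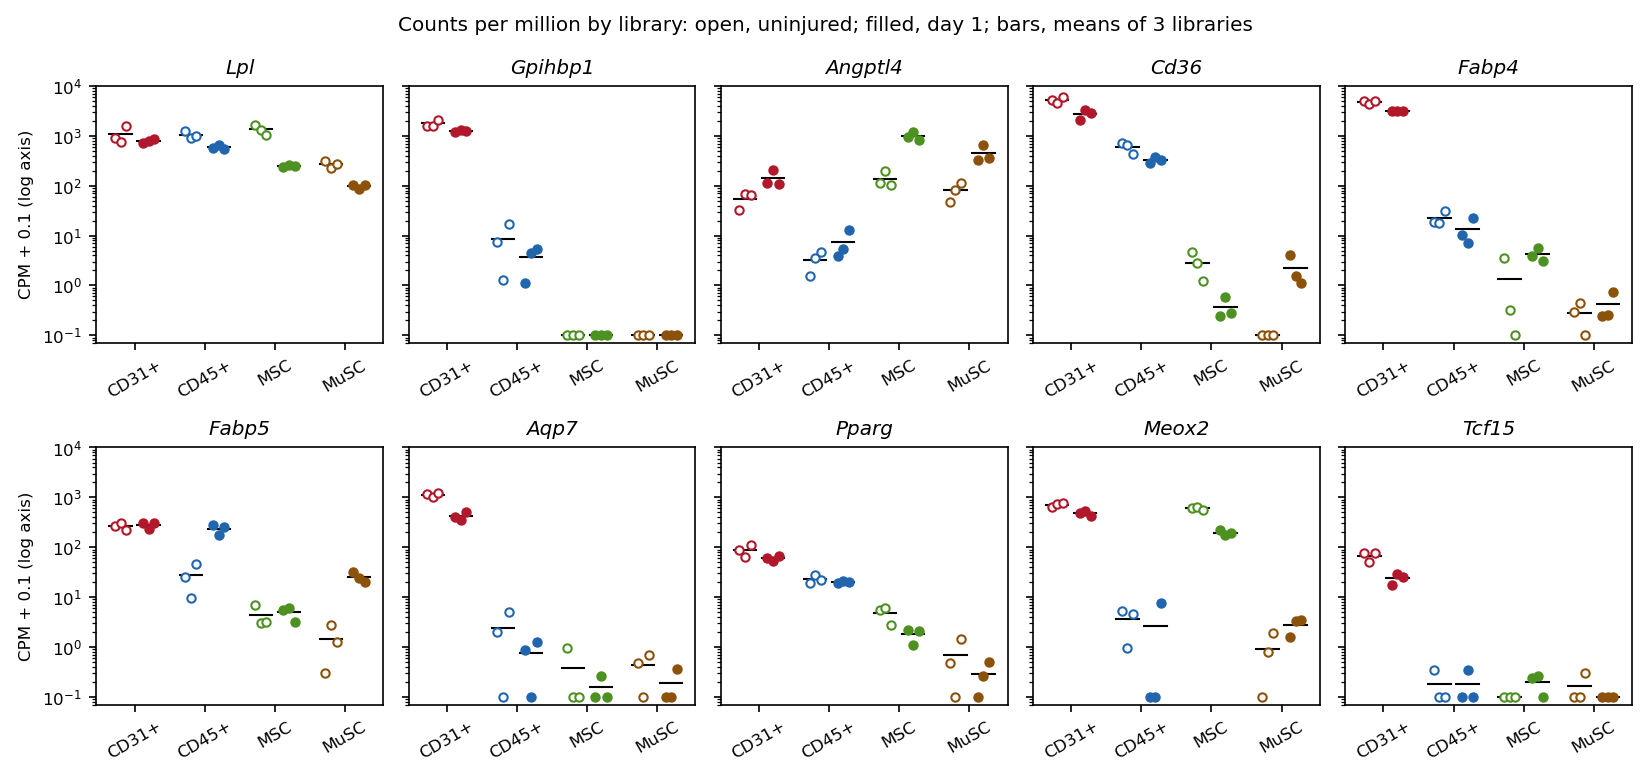
Level of each of the 10 genes in every library, as CPM + 0.1 on a log axis, in uninjured (open) and injured (filled) CD31+, CD45+, MSC and MuSC libraries, with black bars at the mean of 3 libraries. Gpihbp1 and Aqp7 stay below 17 CPM outside CD31+ cells and Tcf15 below 0.3 CPM, whereas Lpl is present in all 4 populations and Angptl4 is highest in MSC.

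Among the genes of the lipase step, Gpihbp1 was read at 1601, 1589 and 2128 CPM in the 3 uninjured CD31+ libraries. It had no count in any MSC or MuSC library, which puts uninjured CD31+ cells at least 8716-fold above MSC and at least 7709-fold above MuSC (floor of 3 counts over the group; counting error only). In CD45+ cells it was at 7.36, 1.16 and 16.6 CPM. Pecam1 in those same libraries was at 25.4, 34.1 and 83.3 CPM, highest in the library with the most Gpihbp1, and the part of endothelial RNA in that value was not tested.

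Lpl itself showed another distribution. Its CPM were 926, 766 and 1600 in CD31+ cells, 1250, 924 and 989 in CD45+ cells and 1679, 1340 and 1038 in MSC, and none of the 3 pairs among these populations passed the test (adjusted p 0.242 for CD31+ against MSC, 0.844 for CD31+ against CD45+ and 0.142 for CD45+ against MSC). MuSC, at 308, 224 and 270 CPM, were lower than each of them. The carrier was therefore read almost entirely in CD31+ libraries and the lipase in all 4 populations.

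Angptl4, the inhibitor, was highest in MSC. It was at 116, 196 and 103 CPM in uninjured MSC, 47.0, 82.4 and 114 CPM in MuSC and 32.3, 68.1 and 65.1 CPM in CD31+ cells. MSC exceeded CD31+ cells (log2 difference CD31+ minus MSC -1.33 ± 0.43, SE, adjusted p 0.0157), a call lost without CD31+ replicate 1 (adjusted p 0.117) or without MSC replicate 2 (0.0867). MuSC did not pass against MSC or against CD31+ cells. CD45+ cells, at 1.42, 3.47 and 4.58 CPM, were lower than the other 3.

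Of the uptake and binding genes, Cd36 was at 5223, 4506 and 6031 CPM in CD31+ cells, 716, 659 and 425 CPM in CD45+ cells and 4.52, 2.69 and 1.11 CPM in MSC. It had no count in uninjured MuSC, at least 23073-fold below CD31+ cells, and all 6 pairs of populations differed. The CD45+ library with the highest Gpihbp1 had the lowest Cd36 of its group. Fabp4 was at 4919, 4340 and 4896 CPM in CD31+ cells, at 17.6 to 31.2 CPM in CD45+ cells and at most 3.52 CPM elsewhere.

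Fabp5, the other binding protein, was at 272.5, 308 and 226 CPM in CD31+ cells. It was at 24.9, 9.54 and 46.9 CPM in CD45+ cells, and at 2.91 to 6.87 CPM in MSC and 0.194 to 2.71 CPM in MuSC, 2 populations that did not differ (adjusted p 0.0570). Aqp7, the glycerol channel, was at 1172, 1030 and 1197 CPM in CD31+ cells and at most 4.87 CPM in any library of another population. Per length of the principal transcript, the level in uninjured CD31+ cells was 5266 ± 366 RPKM for Fabp4, 2149 ± 373 for Gpihbp1, 1546 ± 224 for Cd36, 448 ± 35.7 for Aqp7, 272 ± 41.7 for Fabp5 and 267 ± 108 for Lpl. Fabp4 fell below Cd36, at 1051 against 1463 RPKM, when the length of all annotated exons was used instead.

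The transcription factor genes differed in where they were read. Pparg was at 85.9, 62.7 and 110 CPM in CD31+ cells, 19.5, 27.2 and 22.0 CPM in CD45+ cells, 2.67 to 5.82 CPM in MSC and at most 1.37 CPM in MuSC, and all pairs differed. Tcf15 was at 76.9, 50.3 and 75.5 CPM in CD31+ cells, with at most 1 count in all 3 libraries of any other uninjured population. Its known partner Meox2 was at 627, 730 and 755 CPM in CD31+ cells and at 603, 634 and 560 CPM in MSC, which did not differ (adjusted p 0.691), and at most 5.22 CPM in the other 2 populations. Meox2 was thus abundant in MSC, in which Tcf15 had no count.

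The second comparison asked how the genes stood 1 day after cardiotoxin in CD31+ cells. Of the 10 members, 3 fell (Aqp7, Cd36 and Tcf15), 1 rose (Angptl4) and 6 did not pass, where 9.30% of all tested genes fell and 14.1% rose. The members' median log2 fold change was -0.53, against -0.04 over all genes. The libraries of both conditions did not overlap for 7 members (6 lower, 1 higher), where this held for 37.3% of all genes. In sorted bulk cells, fewer cells of a type and less RNA per cell cannot be told apart. The balance of all genes depends on scaling: 60.3% of the called genes rose in the fit given here and 48.3% with the RLE scaling, whose median over all genes was -0.15.

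Aqp7 went from 1172, 1030 and 1197 CPM to 410, 352 and 515 CPM, or 37.6% of the uninjured mean (log2 fold change -1.41 ± 0.31, adjusted p 0.00241). All 3 injured libraries were below all 3 uninjured ones, and DESeq2 did not call it (adjusted p 0.256). Tcf15 went from 76.9, 50.3 and 75.5 CPM to 17.1, 29.3 and 25.1 CPM, or 35.3% (-1.51 ± 0.32, adjusted p 0.00164), again without overlap.

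Cd36 went from 5223, 4506 and 6031 CPM to 2113, 3264 and 2847 CPM, or 52.2% of the uninjured mean (-0.94 ± 0.29, adjusted p 0.0287). The groups did not overlap. The call was lost without uninjured replicate 1 (adjusted p 0.0570) or 3 (0.0902), without injured replicate 1 (0.101) or 3 (0.0584), and without the filter on low counts (0.188). Injured replicate 1 was also the CD31+ library with the most macrophage and monocyte transcripts, a list of 11 genes summing to 174 CPM there and to 13.0 and 17.1 CPM in the other two.

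Angptl4 was the member that rose, from 32.3, 68.1 and 65.1 CPM to 115, 205 and 109 CPM, 2.59-fold (log2 fold change 1.38 ± 0.42, adjusted p 0.0247). The groups did not overlap, but the call was lost without uninjured replicate 1 (adjusted p 0.117), without injured replicate 2 (0.122), or with only the CD31+ libraries in the fit (0.0563). Stromal markers, 9 genes that sum to over 37443 CPM in each MSC library, summed to 24.8 to 53.7 CPM in uninjured and 23.8 to 35.5 CPM in injured CD31+ cells. The part of stromal RNA in the Angptl4 value was not tested.

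**Figure D2:**
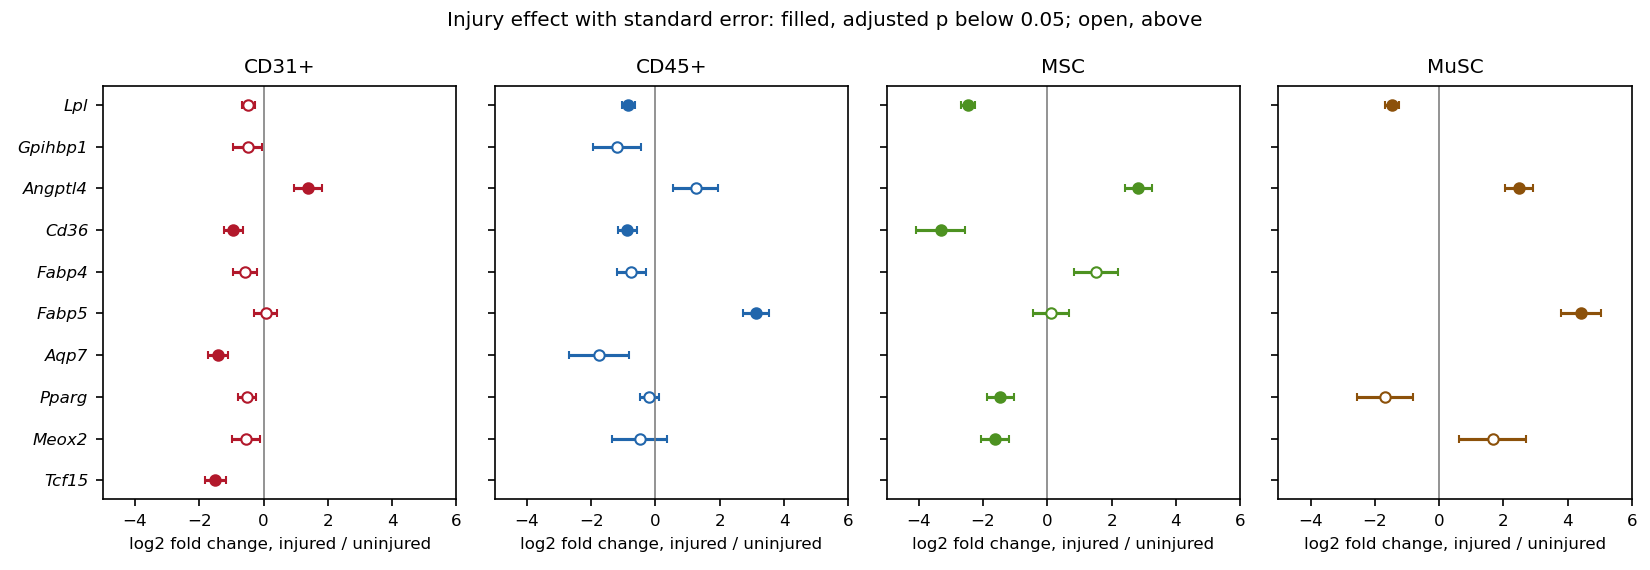
Log2 fold change of injured over uninjured (x axis) for the 10 genes in each population, with the standard error; filled points passed the test and open points did not, and genes with 3 or fewer counts in a group are left out. Lpl lies left of 0 in all 4 panels, Angptl4 lies right of 0 in all 4, and Fabp5 is near 0 in CD31+ cells and MSC and far to the right in CD45+ cells and MuSC.

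The lipase carrier, the binding protein Fabp4 and Meox2 did not pass in CD31+ cells. Gpihbp1 went from 1601, 1589 and 2128 CPM to 1186, 1339 and 1240 CPM (log2 fold change -0.50 ± 0.45, adjusted p 0.495). Fabp4 went from 4919, 4340 and 4896 CPM to 3179, 3105 and 3118 CPM (-0.59 ± 0.37, adjusted p 0.286), and Meox2 from 627, 730 and 755 CPM to 488, 537 and 424 CPM (-0.54 ± 0.43, adjusted p 0.404). For all 3 genes the injured libraries lay below the uninjured ones without overlap, and all 3 passed with limma voom (adjusted p 0.000368, 2.47e-07 and 0.00423) and with only the CD31+ libraries in the fit (0.00394, 0.00014 and 0.00171).

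Pparg went from 85.9, 62.7 and 110 CPM to 61.7, 53.4 and 65.6 CPM, with overlap between the conditions (-0.52 ± 0.28, adjusted p 0.192), and passed with limma voom (0.0422), DESeq2 (0.0442) and only the CD31+ libraries in the fit (0.0434). Lpl went from 926, 766 and 1600 CPM to 715, 796 and 855 CPM, also with overlap (-0.48 ± 0.20, adjusted p 0.102), and passed without uninjured replicate 2 (adjusted p 0.0162), with RLE scaling (0.0399) and with DESeq2 (0.0257). Lpl did not pass with limma voom (adjusted p 0.121) or with only the CD31+ libraries in the fit (0.322). With 1 library left out its log2 fold change ran from -0.68 to -0.10. Fabp5 stayed at 272.5, 308 and 226 CPM uninjured and 307, 230 and 308 CPM injured (0.07 ± 0.36, adjusted p 0.924), and its sign turned with RLE scaling (-0.04). As a share of all counts, the 10 genes together went from 1.57% ± 0.150 to 0.960% ± 0.0802.

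After injury 7 of 10 members were again highest in CD31+ cells, where 10.8% of all tested genes were. Between injured populations the pairs passed for 53.1% of all tested genes (CD31+ against CD45+), 51.5% (CD31+ against MSC), 54.1% (CD31+ against MuSC), 61.7% (CD45+ against MSC), 64.4% (CD45+ against MuSC) and 33.6% (MSC against MuSC). Meox2 passed against MSC (log2 difference 1.31 ± 0.43, adjusted p 0.0179), while Fabp5 did not pass against CD45+ cells. For Meox2 the test of a change between the conditions, the injury effect in CD31+ cells minus that in MSC, did not pass (1.08 ± 0.61, adjusted p 0.289). The Meox2 call was lost with DESeq2 (adjusted p 0.256), without the filter on low counts (0.0973), and without injured MSC replicate 2 (0.0592) or 3 (0.0540). Lpl, at 715 to 855 CPM in CD31+ cells and 555 to 643 CPM in CD45+ cells, was not shown to differ between those 2 populations (adjusted p 0.0861) and was lower in MSC and lowest in MuSC. Angptl4 was ordered MSC, MuSC, CD31+ and CD45+, each step passing the test.

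Lpl fell in MSC, MuSC and CD45+ cells, and Angptl4 rose in MSC, MuSC and CD31+ cells. Lpl went from 1679, 1340 and 1038 CPM to 240, 257 and 243 CPM in MSC, or 18.2% of the uninjured mean (log2 fold change -2.46 ± 0.22, adjusted p 1.15e-08). It fell to 36.3% in MuSC, from 308, 224 and 270 CPM to 103, 85.6 and 103 CPM (-1.46 ± 0.21, adjusted p 1.1e-05), and to 55.7% in CD45+ cells, from 1250, 924 and 989 CPM to 561, 643 and 555 CPM (-0.85 ± 0.21, adjusted p 0.00303). The fall in MSC was larger than the change in CD31+ cells (difference of log2 changes 1.98 ± 0.29, adjusted p 9.6e-05) and than that in CD45+ cells (1.61 ± 0.29, adjusted p 0.000277), while the changes in CD31+ and CD45+ cells were not shown to differ (0.37 ± 0.29, adjusted p 0.426).

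Angptl4 rose 7.13-fold in MSC, from 116, 196 and 103 CPM to 951, 1170 and 831 CPM (2.84 ± 0.43, adjusted p 3.64e-05), and 5.61-fold in MuSC, from 47.0, 82.4 and 114 CPM to 331, 667 and 367 CPM (2.49 ± 0.43, adjusted p 0.000153). In CD45+ cells it was at 1.42, 3.47 and 4.58 CPM uninjured and 3.79, 5.39 and 12.6 CPM injured, which overlap (adjusted p 0.192; with DESeq2, 0.0402). The F test over the 4 populations did not show that its response differed between them (adjusted p 0.146). In MSC the inhibitor was thus higher and its target enzyme lower after injury, in every library.

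Within MSC, 4 members fell and 1 rose, where 23.6% and 18.3% of all tested genes did, and the libraries did not overlap for those 5 members, as for 55% of all genes. Meox2 went from 603, 634 and 560 CPM to 220, 172 and 191 CPM (-1.62 ± 0.44, adjusted p 0.00632), a call lost with DESeq2 (adjusted p 0.123) and without the filter on low counts (0.0568). Cd36, at 4.52, 2.69 and 1.11 CPM, went to 0.140, 0.497 and 0.180 CPM (-3.32 ± 0.77, adjusted p 0.00247; with limma voom 0.174), and Pparg from 5.53, 5.82 and 2.67 CPM to 2.10, 0.995 and 1.98 CPM (-1.46 ± 0.42, adjusted p 0.00668; without uninjured replicate 1, 0.0616; with limma voom, 0.0757). Those last 2 genes rest on few counts: Cd36 had 44 counts in the uninjured group and 5 in the injured.

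The other 5 members did not pass in MSC. Fabp4 was at 3.52, 0.224 and 0 CPM uninjured and 3.77, 5.64 and 3.06 CPM injured, with overlap (1.52 ± 0.69, adjusted p 0.0879), and it passed with DESeq2 (0.0430) and limma voom (0.0111). Fabp5 was at 6.87, 2.91 and 3.11 CPM uninjured and 5.45, 5.97 and 3.06 CPM injured (0.13 ± 0.56, adjusted p 0.897). Aqp7 had 5 counts in all uninjured MSC and 1 in all injured MSC, Tcf15 had 0 and 2, and Gpihbp1 had none, so no change was detectable at this depth for these.

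Within CD45+ cells 2 members fell (Lpl and Cd36) and 1 rose (Fabp5), where 18.5% and 16% of all tested genes did, and the libraries did not overlap for these 3, as for 43% of all genes. Fabp5 went from 24.9, 9.54 and 46.9 CPM to 274, 172 and 259 CPM, 8.67-fold (3.12 ± 0.41, adjusted p 9.51e-06), and the injured libraries of CD45+ and CD31+ cells overlapped. Cd36 went from 716, 659 and 425 CPM to 279, 369 and 333 CPM (-0.88 ± 0.30, adjusted p 0.0305), without overlap. That call was lost without uninjured replicate 1 (adjusted p 0.111) or 2 (0.0842), without injured replicate 1 (0.102) or 3 (0.0619), and without the filter (0.152).

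The other members did not pass in CD45+ cells, and the libraries of both conditions overlapped for each. Pparg was at 19.5, 27.2 and 22.0 CPM uninjured and 19.2, 20.8 and 20.1 CPM injured (-0.19 ± 0.30, adjusted p 0.672). Fabp4 was at 18.5, 17.6 and 31.2 CPM and then 10.4, 7.11 and 22.2 CPM (-0.75 ± 0.45, adjusted p 0.221), and Gpihbp1 at 7.36, 1.16 and 16.6 CPM and then 1.01, 4.41 and 5.37 CPM (-1.19 ± 0.75, adjusted p 0.263). Aqp7 was at most 4.87 CPM, Meox2 at most 7.47 CPM, and Tcf15 had 1 count in each condition. The Meox2 value of 7.47 CPM was in injured replicate 3, the library with 6.31 CPM of Pdgfra, and the other 2 injured libraries had no count of either gene. All 9 stromal markers together summed to 1279, 1101 and 1366 CPM in injured replicates 1, 2 and 3. The part of stromal RNA in the Meox2 value was not tested.

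The makeup of the CD45+ cells differed between the conditions as well. All 7 lymphocyte markers fell, their sum going from 515 to 2075 CPM down to 6.86 to 37.6 CPM, and 5 of 7 neutrophil markers rose, their sum going from 953 to 3386 CPM up to 5754 to 9225 CPM. Macrophage and monocyte markers summed to 21448 to 32243 CPM uninjured and 24316 to 25632 CPM injured. Of 3 platelet markers tested 2 rose and 1 fell, and the platelet list summed to 518 to 1542 CPM uninjured and 2858 to 4331 CPM injured. The part of these shifts in the values of Lpl, Cd36 and Fabp5 was not tested.

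Within MuSC 3 members rose and 1 fell, where 21.4% and 17.5% of all tested genes did, and the libraries did not overlap for these 4, as for 49.5% of all genes. Fabp5 went from 0.194, 2.71 and 1.18 CPM to 31.7, 23.6 and 20.1 CPM, 18.5-fold (4.41 ± 0.63, adjusted p 1.55e-05). Of 9 stromal markers 3 rose and 1 fell in MuSC, and their sum was 3996 to 4714 CPM uninjured and 1849 to 2620 CPM injured, with none at 0 after injury. Pdgfra, one of those that rose, was uneven in the injured libraries at 0.298, 48.8 and 25.4 CPM. Replicate 2, with the most Pdgfra, also had the most Angptl4, and replicate 1, with the least, had the most Fabp5. The part of stromal RNA in the MuSC values was not tested. Cd36 had no count in uninjured MuSC and stood at 4.02, 1.45 and 1.04 CPM after injury, at least 9.38-fold higher (adjusted p 0.0021), from 44 counts in all; with limma voom the adjusted p was 0.0915. Pecam1 was at most 0.260 CPM in those libraries. A list of 12 endothelial markers summed to 102 to 122 CPM in uninjured and 70.4 to 99.4 CPM in injured MuSC. A list of 9 capillary markers summed to 73.4 to 90.7 CPM uninjured and 251 to 289 CPM injured. Of these 9 markers 2 rose, 1 fell and 6 did not pass, and Kdr had no count in injured MuSC. The same list summed to 3121 to 3419 CPM in uninjured MSC. The part of endothelial RNA in the Cd36 value was not tested.

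The other 6 members did not pass in MuSC and were near the limit of the depth. Meox2 was at 0, 0.678 and 1.77 CPM uninjured and 1.49, 3.21 and 3.38 CPM injured, with overlap (1.67 ± 1.04, adjusted p 0.228). Pparg had 9 counts in all uninjured and 4 in all injured MuSC, Fabp4 had 2 and 7, Aqp7 had 5 and 2, Tcf15 had 1 and 0, and Gpihbp1 had none.

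The test of whether the injury response itself differed over the 4 populations passed for Cd36 (adjusted p 0.00109), Fabp5 (9.8e-05) and Lpl (9.09e-05), 3 of 10 members where 35.9% of all tested genes passed. Pairs of responses differed for 17.1% of all tested genes (CD31+ against CD45+), 12.6% (CD31+ against MSC), 12.3% (CD31+ against MuSC), 25.1% (CD45+ against MSC), 24.4% (CD45+ against MuSC) and 7.73% (MSC against MuSC). For Fabp5 the rise in CD45+ cells exceeded the change in CD31+ cells (CD31+ minus CD45+ -3.05 ± 0.53, adjusted p 0.000538), and so did the rise in MuSC (CD31+ minus MuSC -4.34 ± 0.74, adjusted p 0.000623).

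Other genes of these pathways were followed in lists, described by their counts. The counts stand beside the shares of all tested genes, which in CD31+ cells were 9.3% lower and 14.1% higher, and several lists are near those shares. In CD31+ cells, of 17 further genes for fatty acid uptake and activation 5 fell and 1 rose, with a median log2 fold change of -0.17. Acsl1, which couples fatty acids to coenzyme A, went from 23.5 ± 0.514 to 8.81 ± 2.66 CPM (log2 fold change -1.40 ± 0.28, SE). Scarb1, a lipoprotein receptor, went from 1565 ± 99.0 to 924 ± 122 CPM (-0.76 ± 0.16), and Cavin1, a coat protein of caveolae, from 3373 ± 374 to 2005 ± 176 CPM (-0.75 ± 0.21). Vldlr, another lipoprotein receptor, fell by 2.00 on the log2 scale but was at 1.18 CPM in uninjured replicate 3, inside the injured range.

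Of 11 tested genes for maturation and control of lipases, 3 fell and 1 rose in CD31+ cells (median -0.73). Furin, a protease that cleaves proproteins, rose from 52.3 ± 7.20 to 93.7 ± 12.8 CPM (0.84 ± 0.15), while the related Pcsk6 fell from 13.7 ± 2.31 to 5.04 ± 0.411 CPM (-1.45 ± 0.29). Apoe, an apolipoprotein, fell from 1245 ± 74.5 to 337 ± 117 CPM (-1.89 ± 0.44). The heparan sulfate proteoglycan gene Sdc1 fell as well (-1.26 ± 0.36). The list joins genes of opposite action, and its members went both ways.

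The receptor side showed more falls than rises in CD31+ cells. Of 12 genes for the PPARs and their partners, 4 fell and 1 rose (median -0.56). Rxra, the partner with which Pparg binds DNA, went from 59.1, 58.2 and 61.6 CPM to 29.4, 28.3 and 30.2 CPM (-1.02 ± 0.23, adjusted p 0.00181), and the coactivator genes Ncoa1 (-0.75 ± 0.18) and Ncoa2 (-0.71 ± 0.19) fell. Med1, a subunit of the Mediator complex, rose (0.47 ± 0.12). Of 10 further PPAR target genes tested, 1 rose and 0 fell, and that one was Plin2.

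Plin2, which coats lipid droplets, went from 86.5, 90.1 and 97.6 CPM to 156, 239 and 191 CPM in CD31+ cells (1.10 ± 0.20, adjusted p 0.000237). Of 15 lipid droplet and lipolysis genes 2 rose and 3 fell there. The rises were Plin2 and Dgat2, which makes triglyceride (1.47 ± 0.45, at no more than 8.25 CPM), and the falls included Pnpla2, the first lipase of droplet breakdown (-0.70 ± 0.17), and Agpat2 (-0.79 ± 0.21). Of 7 genes for glycerol handling only Gpd1l fell (-0.80 ± 0.27). The water channel gene Aqp1, counted on this list, was at 5900, 4602 and 5939 CPM uninjured and 2394, 3102 and 2809 CPM injured. Its values did not overlap, and it did not pass (-0.99 ± 0.49, adjusted p 0.168).

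For burning and making fatty acids the changes in CD31+ cells were mixed. Of 16 mitochondrial oxidation genes 3 fell (Acaa2 -0.82 ± 0.19, Hadh -0.51 ± 0.14 and Cpt2 -0.52 ± 0.16) and 1 rose (Hadha 0.55 ± 0.13). Of 13 synthesis and desaturation genes 2 fell (Acacb -1.55 ± 0.28 and Acly -0.52 ± 0.14) and 2 rose (Fasn 0.85 ± 0.26 and Elovl1 0.43 ± 0.10). Of 11 genes of VEGF-B and Notch signalling, which is tied to endothelial fatty acid transport, 1 fell: Nrp1, a coreceptor for VEGF-B, went from 1626 ± 181 to 875 ± 38.8 CPM (-0.89 ± 0.22).

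**Figure D3:**
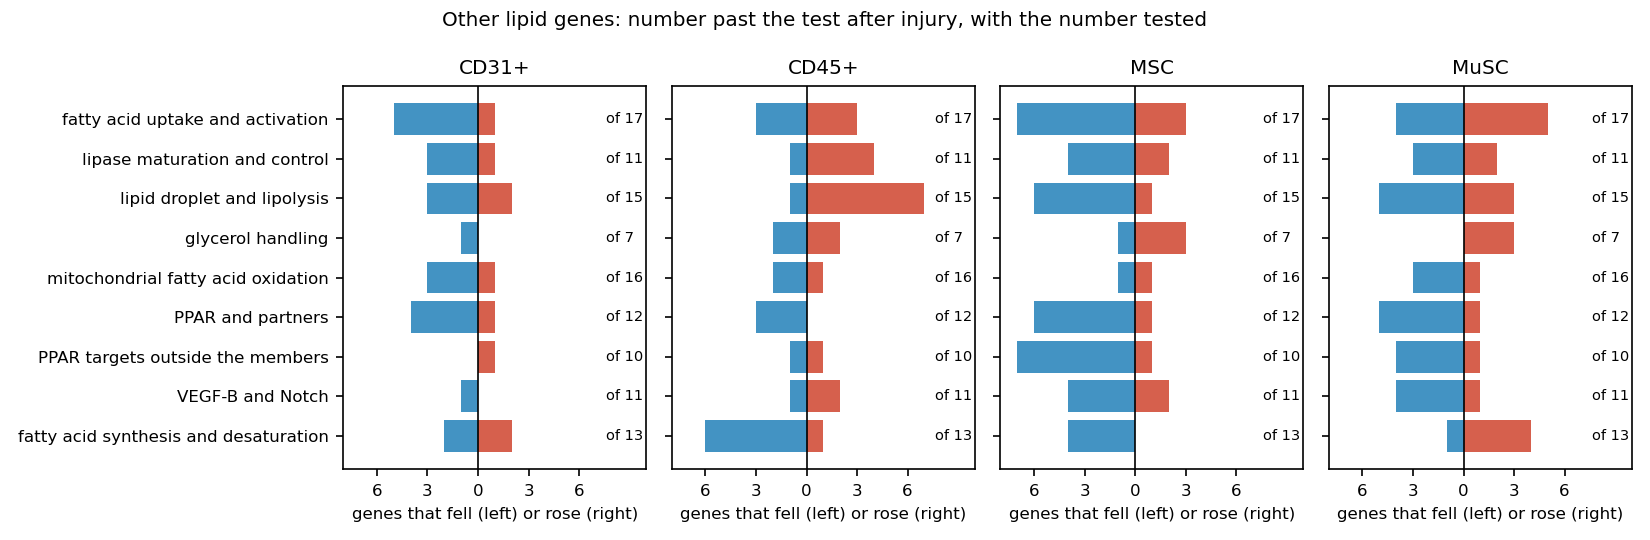
Number of genes of each list that fell (blue, left of 0) or rose (red, right of 0) after injury in each population, with the number tested at the right. The lists go both ways in most panels; 7 of 15 lipid droplet genes rose in CD45+ cells, and 7 of 10 PPAR targets outside the members fell in MSC.

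In CD45+ cells, where 16% of all tested genes rose and 18.5% fell, 7 of 15 lipid droplet genes rose and 1 fell. Plin2 went from 324 ± 11.5 to 2596 ± 364 CPM (3.00 ± 0.21) and Hilpda, an inhibitor of droplet lipolysis, from 15.3 ± 5.86 to 188 ± 59.5 CPM (3.62 ± 0.25), beside the rise of Fabp5. Gk, the kinase that traps glycerol, rose from 8.05 ± 3.22 to 47.9 ± 19.6 CPM (2.57 ± 0.42), and 2 of 7 glycerol genes rose and 2 fell. Of 13 synthesis genes 6 fell and 1 rose, among them Scd1, a desaturase (-5.41 ± 0.62), and Elovl1 (0.73 ± 0.10). Of 17 uptake genes 3 rose and 3 fell, among them Slc27a3 (-5.45 ± 0.42) and Cavin1 (-2.46 ± 0.25).

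The other lists in CD45+ cells went as follows. Of 11 lipase control genes 4 rose and 1 fell, with Furin at 1.31 ± 0.15 and Sdc1 at 1.07 ± 0.35 on the log2 scale. Of 16 oxidation genes 1 rose (Slc25a20, 0.70 ± 0.23) and 2 fell, Acadm among them (-0.44 ± 0.14). Of 12 PPAR and partner genes 3 fell and 0 rose, with Ncor1 at -0.40 ± 0.12 and Ncoa2 at -0.54 ± 0.19. Of 10 further targets Plin2 rose and Cat, which encodes catalase, fell (-1 ± 0.14), and of 11 VEGF-B and Notch genes 2 rose and 1 fell, among them Jag1 (2.27 ± 0.30) and Vegfb (-1.68 ± 0.47).

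In MSC, where 23.6% of all tested genes fell and 18.3% rose, 7 of 10 further PPAR targets fell and 1 rose (median -0.95, against -0.22 over all genes). Ucp2, a mitochondrial carrier, went from 123 ± 45.0 to 18.3 ± 3.63 CPM (-2.74 ± 0.24) and Cat from 232 ± 32.1 to 102 ± 14.6 CPM (-1.18 ± 0.14). Of 12 PPAR and partner genes 6 fell and 1 rose, with Ncoa1 at -1.21 ± 0.17 and Ncoa2 at -1.11 ± 0.19. Of 11 lipase control genes 4 fell and 2 rose: Pcsk6 went from 438 ± 62.2 to 48.1 ± 6.98 CPM (-3.19 ± 0.23) and Sdc1 rose (2.94 ± 0.35).

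Of 15 droplet genes 6 fell and 1 rose in MSC, with Pnpla2 at -1.59 ± 0.19 and Plin3 at -1.04 ± 0.15. Of 17 uptake genes 7 fell and 3 rose, among them Cavin2 (-2.39 ± 0.35) and Acsl4 (1.72 ± 0.22). Synthesis genes fell in 4 of 13 and rose in 0, with Acacb at -2.66 ± 0.35 and Scd2 at -1.41 ± 0.32. Of 16 oxidation genes 1 rose (Acads, 0.72 ± 0.18) and 1 fell (Hadh, -0.41 ± 0.14). Of 7 glycerol genes 3 rose and 1 fell, Aqp1 (2.71 ± 0.85) and Gpd1 (-2.87 ± 0.80) both under 11 CPM, and of 11 VEGF-B and Notch genes 2 rose and 4 fell, among them Notch4 (1.99 ± 0.37) and Jag1 (-1.33 ± 0.24).

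In MuSC, where 21.4% of all tested genes rose and 17.5% fell, of 17 uptake genes 5 rose and 4 fell, with Scarb1 at 1.89 ± 0.18 and Acsl5 at 1.07 ± 0.14. Plin2 rose from 47.8 ± 7.80 to 122 ± 49.1 CPM (1.35 ± 0.20) while 4 of 10 further PPAR targets fell, Ech1 among them (-0.87 ± 0.15). Of 15 droplet genes 3 rose and 5 fell, with Lipe, the hormone-sensitive lipase, at -1.78 ± 0.24 and Plin3 at -0.995 ± 0.15. Glycerol genes rose in 3 of 7 and fell in 0, with Gpd2 at 1.61 ± 0.23 and Gpd1 at 2.85 ± 0.65.

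Lipase control genes rose in 2 of 11 and fell in 3 in MuSC, where Apoe went from 3349 ± 763 to 783 ± 141 CPM (-2.10 ± 0.44) and Sdc1 rose (1.84 ± 0.33). PPAR and partner genes rose in 1 of 12 and fell in 5, with Ncoa1 at -1.07 ± 0.16 and Ncoa2 at -0.91 ± 0.19. Of 16 oxidation genes 1 rose (Acadl, 0.64 ± 0.13) and 3 fell (Acaa2, -0.53 ± 0.19, among them). Of 13 synthesis genes 4 rose and 1 fell, with Elovl1 at 0.91 ± 0.10 and Acacb at -1.92 ± 0.30. Of 11 VEGF-B and Notch genes 1 rose, Nrp1 (3.26 ± 0.29), and 4 fell, Notch1 (-1.45 ± 0.19) among them.

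The CD31+ cells of muscle hold capillary, arterial, venous and lymphatic endothelium, and markers of these were read beside the 10 genes. Of 9 capillary markers 6 fell and 0 rose after injury (median -1.20), and their summed level went from 16236 to 20153 CPM down to 10239 to 11023 CPM. Sparcl1 went from 3547 ± 156 to 856.5 ± 171 CPM (-2.05 ± 0.43), Cd300lg from 1620 ± 378 to 688 ± 87.3 CPM (-1.24 ± 0.23), and Rgcc from 933 ± 221 to 364 ± 56.5 CPM (-1.36 ± 0.28). Kdr, Btnl9 and Timp4 fell as well, whereas Ly6c1 (-0.58 ± 0.35), Car4 (-0.48 ± 0.34) and Cxcl12 (0.01 ± 0.42) did not pass.

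None of 8 arterial markers passed, and their sum was 1170 to 1635 CPM uninjured and 1266 to 1536 CPM injured. Of 6 venous markers Lrg1 rose (1.39 ± 0.47) and Vwf fell (-1.32 ± 0.26). Of 4 lymphatic markers tested 2 fell and 0 rose (median -2.19). Lyve1 was at 97.4, 10.7 and 0 CPM uninjured and 1.08, 4.08 and 0.159 CPM injured (-4.47 ± 1.41, adjusted p 0.0289), and Pdpn at 11.3, 6.21 and 0 CPM and then 0.154, 1.16 and 1.59 CPM (-2.67 ± 0.83, adjusted p 0.0268), both with overlap. Of 12 markers of endothelium in general only Kdr, which is also on the capillary list, fell. Pericyte and smooth muscle markers summed to 576 to 807 CPM uninjured and 316 to 499 CPM injured, and muscle fiber markers to 129 to 176 and 45.8 to 94.3 CPM. Platelet markers summed to 6.48 to 11.3 CPM uninjured and 24.3 to 59.6 CPM injured. The part of any of these shifts in the values of Cd36, Aqp7, Tcf15 and Angptl4 was not tested.

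**Figure D4:**
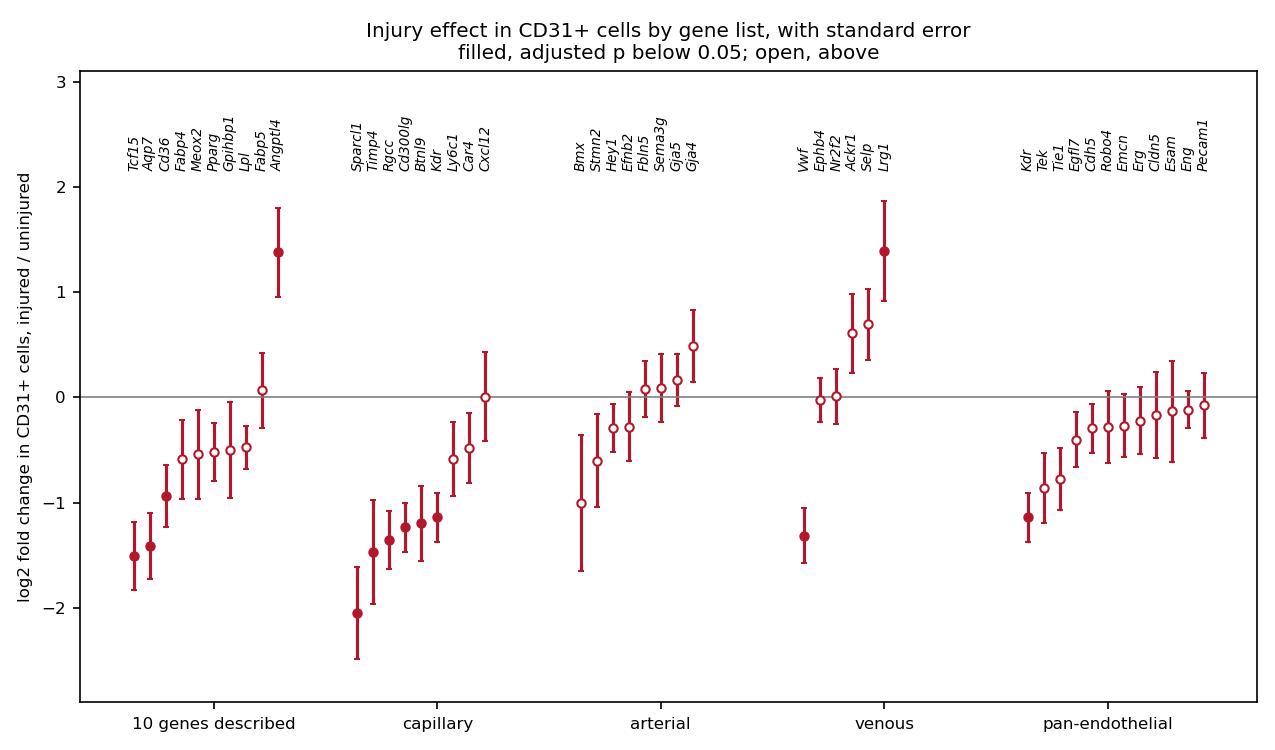
Log2 fold change in CD31+ cells, injured over uninjured, with the standard error, for the 10 genes described and for markers of capillary, arterial, venous and all endothelium; filled points passed the test. The capillary markers that passed lie between -1 and -2.1, the range that also holds Tcf15, Aqp7 and the venous marker Vwf. Of 9 capillary markers 3 did not pass, and no arterial marker passed.

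The genes whose level over the 24 libraries was most like that of each member were found by Pearson's r of log2 CPM among 10000 genes. These values describe libraries that share 4 populations, so most of the likeness is the contrast between cell types. Gpihbp1 was nearest to Cldn5 (r 0.9941), a tight junction gene, Ccm2l (0.9904) and Adgrg1 (0.9901). Tcf15 was nearest to Ccdc85a (0.9934), Slc1a1 (0.9931) and Lhx6 (0.991), and Aqp7 to Myct1 (0.9878), Emcn (0.9876) and Erg (0.9866).

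Cd36 was nearest to Tspan13 (0.9905), Slc28a2 (0.9824) and Cd93 (0.9771), and Fabp4 to Flt1 (0.9836), Aqp1 (0.9744) and Gpihbp1 (0.9726), the single case of 1 member among the nearest genes of another. Pparg was nearest to Cd38 (0.9804), Dennd3 (0.9709) and Ly6e (0.9683). The genes shared by several populations had less close neighbours: Meox2 had Tmem204 (0.9576), Lama4 (0.9572) and Fmo2 (0.9568), Lpl had Klf3 (0.9647), Tapbp (0.9567) and Itm2b (0.9377), Angptl4 had Smyd2 (0.9512), Pcbp3 (0.9432) and Akt1s1 (0.9362), and Fabp5 had Sipa1l2 (0.938), Ets2 (0.9289) and Parvb (0.9212).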

How the data were processed

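The authors deposited raw read counts per gene. The tools were STAR 2.5.4 and featureCounts on mm10, per the submitters' processing notes; annotation and counting settings: not given in the sources used here. Per the labels' protocols, oligo(dT)-primed cDNA was amplified and read as pairs of 25 bases, with no strand marking, so PCR copies count as reads. Genes that passed edgeR's filter over the 8 groups (16263) were scaled by TMM and fitted with 1 mean per group in edgeR 4.0.16 (R 4.3.3) by quasi-likelihood with robust estimation, 16 residual degrees of freedom and Benjamini-Hochberg adjustment over all tested genes; an adjusted p below 0.05 passed. Standard errors (SE) are the size of the log2 fold change over the root of its F statistic, and approximate. The floor for genes without reads was set at 3 counts, which is 0.389 to 1.02 CPM in a library. RLE scaling, DESeq2 1.42.0, limma 3.58.1 voom, other filters, a replicate block and leaving out each library were alternatives. The fit was tested on simulated data. Positions and lengths came from GENCODE vM21 and promoter windows from RefSeq. All 10 members are given in every injury comparison, those near 0 by their counts. Of each list the up to 4 called genes with the smallest adjusted p in CD31+ cells, and up to 2 in each other population, are named; further genes were chosen after their values were seen. The likeness search kept tested, named genes with at least 20 CPM in their highest group and used a prior count of 2. The members and lists were chosen with earlier results of these data known.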

Additional observations from a re-analysis of the deposited data

Results flagged for a closer look

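The response to injury differed between populations for 3 of the 10 genes, by a test of the difference itself. The test was edgeR quasi-likelihood on the difference of log2 fold changes, with 3 libraries a group and adjustment over all genes. The F test over all populations together passed for the same 3 genes, and for 35.9% of all tested genes. The share of members whose response differed was thus not above that of all genes. Lpl fell more in MSC than in CD31+ and CD45+ cells: the difference was 1.98 ± 0.29 for CD31+ minus MSC (adjusted p 9.6e-05) and 1.61 ± 0.29 for CD45+ minus MSC (0.000277). It was -0.99 ± 0.29 for MSC minus MuSC (0.0400) and 0.99 ± 0.29 for CD31+ minus MuSC (0.0294). The MSC minus MuSC call was lost in 11 of 19 alternatives, among them limma voom (adjusted p 0.0942) and the stricter filter on low counts (0.182). Both Lpl calls that involve MuSC were lost when single libraries were left out, with an adjusted p of up to 0.339 without uninjured MSC replicate 1 for MSC minus MuSC and up to 0.0791 without uninjured MuSC replicate 1 for CD31+ minus MuSC.

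Fabp5 rose in CD45+ cells and MuSC and did not pass in CD31+ cells or MSC. The difference was -3.05 ± 0.53 for CD31+ minus CD45+ (adjusted p 0.000538), -4.34 ± 0.74 for CD31+ minus MuSC (0.000623), 2.99 ± 0.69 for CD45+ minus MSC (0.00331) and -4.28 ± 0.89 for MSC minus MuSC (0.00482). Without uninjured MSC replicate 1 the last 2 had adjusted p of 0.0550 and 0.0529.

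Cd36 fell in CD31+ cells, CD45+ cells and MSC and rose in MuSC from a group with no counts, so the size of the differences that involve MuSC depends on the prior count and is no measure of the change. They were -7.38 for CD31+ minus MuSC (adjusted p 0.00223), -7.32 for CD45+ minus MuSC (0.00116) and -9.77 for MSC minus MuSC (0.00101). With limma voom their adjusted p were 0.0835, 0.0610 and 0.0928. CD45+ minus MSC was 2.44 ± 0.86 (0.0480), a call lost in most alternatives, with an adjusted p of 0.406 with limma voom.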

How the results depend on the processing

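Single genes were followed over the alternatives for every member in injury of CD31+ cells. Elsewhere only effects that had passed in the main fit were followed, so new passes there were not counted. Of the values followed, 604 kept their direction and their side of the threshold, 63 no longer passed, 12 newly passed and 4 changed sign. All 4 were Fabp5 in CD31+ cells, at -0.0413 with RLE scaling, -0.0415 with DESeq2, and -0.0421 to 0.194 when 1 library was left out. The number of members that fell in CD31+ cells went from 3 to 7 with limma voom and to 7 with only the libraries compared, and was 2 to 4 with 1 library left out. The number that rose there went from 1 to 0 with only the libraries compared and was 0 to 1 with 1 library left out (0 without uninjured replicate 1 or injured replicate 2). In CD45+ cells the number that fell went from 2 to 1 without the filter on low counts and was 1 to 3 with 1 library left out (1 without uninjured or without injured replicate 1), and the number that rose was 2 with DESeq2. In MSC the number that fell was 2 with limma voom, and the number that rose was 2 with DESeq2 and with limma voom, and 1 to 2 with 1 library left out (2 without uninjured replicate 1). Members whose response differed over the 4 populations numbered 6 with DESeq2 and 6 with limma voom, against 3, and 3 to 5 with 1 library left out (5 without injured CD45+ replicate 3). The causes were not tested. With unscaled library totals, 74 of the 80 member levels stayed within 1 SD.

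The labels do not tie equal replicate numbers to a mouse, and same-numbered libraries did not deviate together: over all pairs of groups the correlation of their deviations had medians of 0.0131, -0.0038 and -0.0032 for numbers 1, 2 and 3. With the replicate block, 3719 genes passed for injury in CD31+ cells, against 3810, 3 members fell and 1 rose there, 4 members differed in response, and Cd36 for CD45+ minus MSC no longer passed (adjusted p 0.0593). Libraries of 1000 cells and 2301202 to 7649841 counts limit what can be read of genes near 1 CPM.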
